A study of Caenorhabditis elegans with 2 samples.

Results

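The 8 genes described here encode the subunits of the DRM complex, the Caenorhabditis elegans form of the DREAM complex, out of 19973 protein-coding genes annotated on the nuclear chromosomes. They are lin-35, efl-1, dpl-1, lin-9, lin-37, lin-52, lin-53 and lin-54. They were chosen by membership of the complex, with earlier results of these data known, and their intervals were ranked by the deposited signal value, so the ranks below are given as a description and without a test. An interval belonged to a gene when its summit, the position of highest signal within it, lay within 1000 bp of an annotated start of the gene or inside the gene.

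The data are chromatin immunoprecipitation and sequencing (ChIP-seq) peak lists, in which DNA bound by a protein is enriched with an antibody and appears as local peaks of reads. Both libraries came from whole worms of strain OP550, a line with the integrated transgene wgIs550, whose product is F57C9.4 fused at its C-terminal end to GFP and FLAG, and with the mutation unc-119(tm4063). The worms were young adults of both sexes, pooled, taken 66 h after starved L1 larvae were released from arrest, and an anti-GFP antibody was used. The biological replicates, 2 in number and labelled 5 and 6, form 1 group, with nothing set against them. As the worms were taken whole, the lists do not tell in which cells the tagged protein was bound, and the labels do not say which promoter drives the transgene. The authors' final list comes from the IDR (irreproducible discovery rate) procedure, which draws on how repeatable peak ranks are, and it held 360 peaks. Those were the 360 best pooled intervals by signal value, and 144 of them (40%) were also among the 360 best of both replicates. Being an IDR peak therefore does not by itself show that the rank of that peak was repeatable. The lists before IDR held 30000 intervals each for replicate 5, replicate 6 and both replicates pooled. Read depth is unknown, so the counting error of the signal values could not be estimated here.

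The DRM complex binds the promoters of cell cycle and developmental genes, mostly to repress them, and in worms its loss contributes to the synthetic multivulva (synMuv) B phenotype and to germline gene expression in somatic cells. LIN-35 is the only pocket protein of the worm, the relative of mammalian Rb, p107 and p130. EFL-1, an E2F factor, and DPL-1, its DP partner, bind DNA as a dimer, and LIN-9, LIN-37, LIN-52, LIN-53 and LIN-54 form the MuvB core. Within that core LIN-54 binds the CHR element directly, LIN-52 joins the core to the pocket protein, and LIN-53 is a histone-binding protein that also belongs to other chromatin complexes.

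The tagged protein gave IDR peaks at 3 of the 8 DRM genes, lin-9, lin-53 and lin-54, and a peak just below the IDR list at lin-52. All 4 are MuvB core genes. Over all protein-coding genes, 1.74% had an IDR peak by the same rule. The summits at lin-53, lin-54 and lin-52 also lay within 1000 bp of the starts of nra-2, rpl-12 and ZK632.9. With each summit given only to its nearest protein-coding start, lin-9 and lin-53 alone kept an IDR peak. The DNA at the pooled summits of 3 of these 4 peaks is printed here so that the CHR and E2F elements bound by the complex can be looked for in it. That at lin-53 is not printed, and its matches are counted further below. Each stretch is the part of the 201 bp around the pooled summit that lies outside annotated genes, taken from the RefSeq genome sequence of WBcel235 (the assembly also called ce11) and written in the direction of the DRM gene. Capitals mark matches to TTTGAA or TTCGAA, the CHR letters, and to TTGGCGC or TTCCCGC or TTGCCGC or TTCGCGC, forms of the E2F site, on either strand. The lin-9 stretch is chrIII:8904150-8904350, the lin-52 stretch chrIII:9824751-9824864 and the lin-54 stretch chrIV:13240652-13240761.

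lin-9 (201 bases, minus strand): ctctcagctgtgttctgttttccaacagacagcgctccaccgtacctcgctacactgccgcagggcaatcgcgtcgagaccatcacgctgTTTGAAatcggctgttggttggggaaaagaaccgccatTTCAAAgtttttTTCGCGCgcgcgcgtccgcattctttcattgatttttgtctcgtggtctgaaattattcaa
lin-52 (114 bases, minus strand): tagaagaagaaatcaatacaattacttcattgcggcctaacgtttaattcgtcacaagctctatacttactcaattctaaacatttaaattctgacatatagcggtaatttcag
lin-54 (110 bases, plus strand): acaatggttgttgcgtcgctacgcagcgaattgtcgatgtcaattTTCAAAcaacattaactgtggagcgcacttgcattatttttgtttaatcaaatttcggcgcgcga

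The lin-9 stretch held 2 CHR matches and 1 E2F match, which did not overlap. The lin-54 stretch held 1 CHR match, and the lin-52 stretch held 0 of either kind. G and C content was 50.2% in the lin-9 stretch, 31.6% in that of lin-52 and 41.8% in that of lin-54. As the stretches differ in length and in place around the summit, their counts and composition are not directly comparable. In the full 201 bp, G and C content was 34.3% at lin-52 and 47.3% at lin-54.

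The pooled ranks of the DRM genes fell into 2 ranges far apart. Best pooled ranks ran from 157 to 433 for 4 of the 5 MuvB core genes, with the fifth, lin-37, in no pooled interval. They ran from 7424 to 21458 for lin-35, efl-1 and dpl-1. With any of the 30000 pooled intervals counted, 7 of 8 DRM genes had one, against 64% of all protein-coding genes, so an interval alone says little. The median best pooled rank over the 7 was 433, against 10201 over the 12775 protein-coding genes with an interval. The median length of the 8 genes was 2507 bp, against 2027 bp for all. With intervals near starts only, the best pooled rank of each DRM gene but efl-1 was unchanged. The part of gene length in the medians was not tested.

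**Figure D1:**
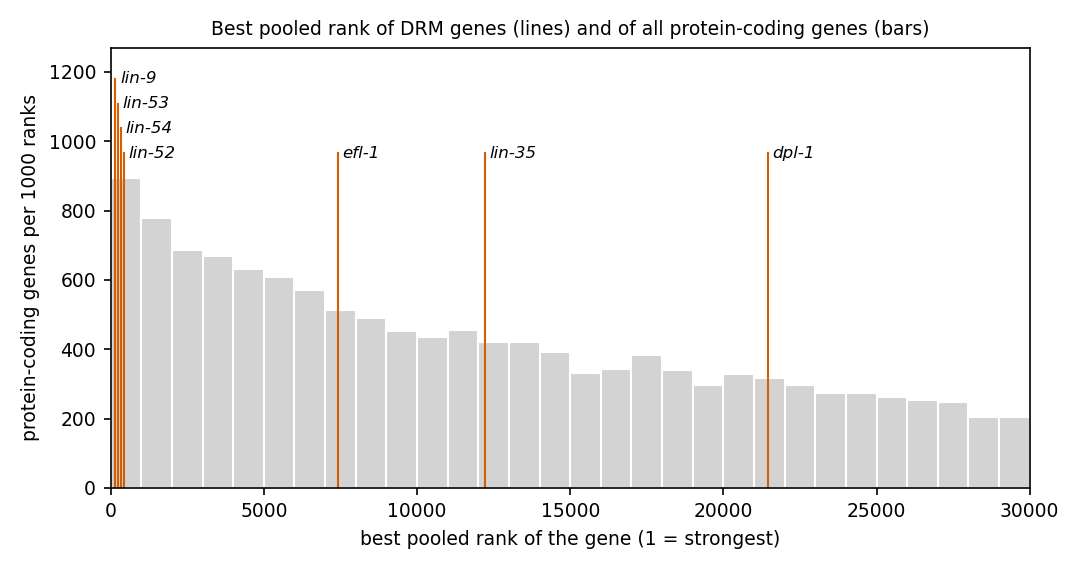
Best pooled rank of each DRM gene (vertical lines) and of all protein-coding genes with a pooled interval (grey bars, genes per 1000 ranks, linear axes). The lines of lin-9, lin-53, lin-54 and lin-52 lie within the first bar, while efl-1, lin-35 and dpl-1 stand at 7424, 12228 and 21458; lin-37 has no pooled interval and no line.

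By pooled signal value, the strongest peak of the set lay upstream of lin-9, whose product is a founding subunit of the MuvB core (WBGene00002998, III:8900237-8904131, minus strand). Its pooled summit was at III:8904250, 119 bp upstream of the start and outside any annotated gene. The pooled signal value was 84.8, and it ranked 157 (q-value 0.0224). The value was 56.7 in replicate 5, at rank 140, and 25.3 in replicate 6, at rank 922. Signal scales differ between lists, and against each list's own median these values were 3.29, 3.06 and 2.06 times as high. The peak was therefore among the 360 best intervals of replicate 5 but not of replicate 6. In replicate 6 the peaks at lin-53, lin-52 and lin-54 all ranked above it, at 331, 507 and 750. The summits of the replicates were 63 bp apart, within the 404 to 416 bp that most intervals span. No other gene had a start within 1000 bp of the pooled summit. Only 152 of the protein-coding genes had a best pooled rank as good as or better than that of lin-9 (0.761%), lin-9 itself included.

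The peak at lin-53, the gene of the RbAp46/48-like histone-binding subunit (WBGene00003036, I:9618196-9619760, minus strand), came next in the pooled list. Its pooled summit at I:9619958 was 198 bp upstream of the start, with a signal value of 74.3 and rank 243 (q-value 0.0186). The signal value was 43.3 in replicate 5, at rank 431, and 32.0 in replicate 6, at rank 331. Both replicates put it near the 360 best intervals, replicate 6 just inside and replicate 5 just outside. Their summits were 23 bp apart. The peak lay in the 466 bp between lin-53 and nra-2, a gene on the other strand for a nicalin-related protein, whose start was 269 bp from the summit. A share of the peak for either gene cannot be assigned. The lin-53 paralogue rba-1, which begins 88 bp beyond the end of lin-53 on the same strand, had no pooled interval by the same rule.

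At lin-54, the gene of the CHR-binding subunit (WBGene00003037, IV:13241044-13243401, plus strand), the pooled summit at IV:13240661 was 383 bp upstream of the nearest start. It was only 10 bp upstream of the start of rpl-12, a large-subunit ribosomal protein gene on the other strand, and the genes are 392 bp apart. The pooled signal value was 68.9 at rank 327 (q-value 0.0138). It was 37.0 in replicate 5 at rank 874 and 26.5 in replicate 6 at rank 750. Neither replicate had it among its 360 best. The summits were 11 bp apart, and in all 3 lists they were nearer to rpl-12 than to lin-54, at 10, 2 and 9 bp. With each summit given only to its nearest protein-coding start, lin-54 had no peak and 2 DRM genes remained, lin-9 and lin-53.

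lin-52, the gene of the small subunit that joins the core to the pocket protein (WBGene00003035, III:9824083-9824750, minus strand), fell just outside the IDR list. Its pooled summit at III:9824764 was 14 bp upstream of a start, with a signal value of 63.3 and rank 433 (q-value 0.0150). The last IDR peak, at rank 360, had a signal value of 66.8, and the first interval outside had 66.7. On the inner side of that edge the nearest DRM peak was that at lin-54, with 68.9. At lin-52 the signal value was 37.4 in replicate 5, at rank 829, and 28.8 in replicate 6, at rank 507. In each replicate it ranked above the lin-54 peak, although its pooled rank was lower. The summits were 102 bp apart, the widest gap among the 4 peaks, and that of replicate 5 lay 66 bp inside lin-52, in a coding exon. ZK632.9 lies on the same strand and ends 126 bp before lin-52 begins, and its start was 668 bp from the pooled summit.

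**Figure D2:**
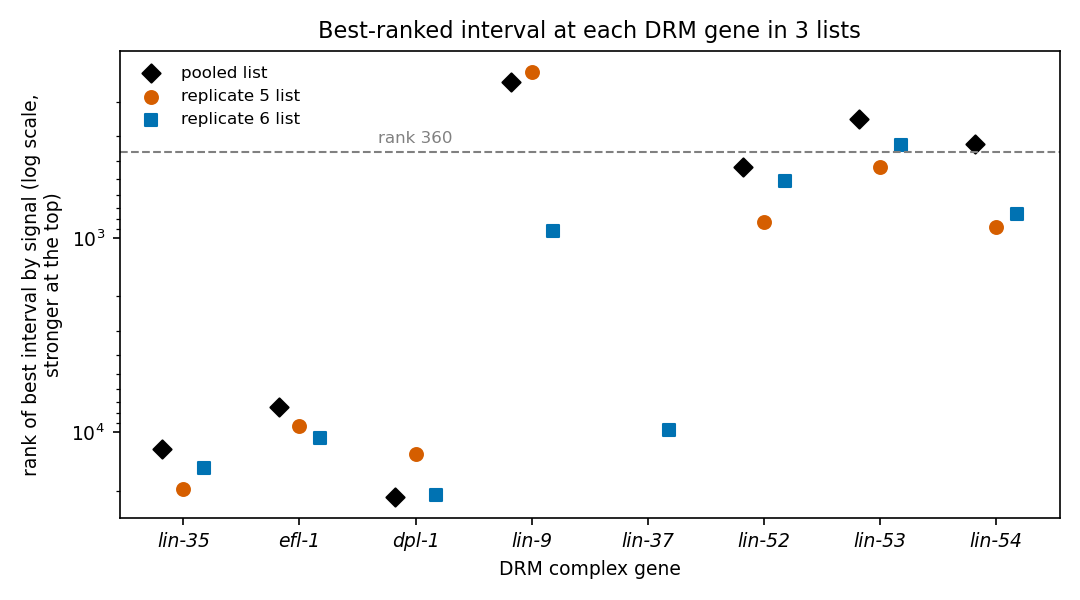
Rank of the best interval at each DRM gene in the pooled list (diamonds), the list of replicate 5 (circles) and that of replicate 6 (squares), on a log axis with stronger intervals at the top; the dashed line is rank 360, the length of the IDR list. The symbols of lin-9, lin-52, lin-53 and lin-54 lie between ranks 140 and 922, and every other symbol lies at rank 7424 or beyond.

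The best pooled intervals of the pocket protein and E2F genes had signal values from 0.867 to 1.25 times the list median. At lin-35 (WBGene00003020, I:5807709-5815637) the best pooled interval ranked 12228, with a signal value of 27.5 (1.07 times the list median) and a q-value of 0.674, in an intron 567 bp inside the gene. It lies 417 bp from the divergent vps-51, a gene of a vesicle-tethering complex, whose start was 985 bp from that summit. The best lin-35 ranks were 19638 in replicate 5 and 15346 in replicate 6. The latter was at another place, 774 bp upstream of the lin-35 start and in an intron of vps-51. At the pooled summit, the interval of replicate 6 ranked 16053. At efl-1 (WBGene00001161, V:16958590-16965675), the E2F gene, the best pooled interval ranked 7424 with a signal value of 32.1 and a q-value of 0.497. It lay in an intron, 1911 bp from the start, and a second one ranked 8187, 254 bp upstream of the start. The best ranks there were 9284 and 10697 in replicates 5 and 6, with summits 29 bp apart.

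At dpl-1, the DP gene (WBGene00001061, II:9169910-9172565), the only pooled interval ranked 21458, with a signal value of 22.3, below the list median, and a q-value of 0.825. Its summit was in a coding exon 358 bp from the start, and the whole gene lies within T23G7.2, which is on the other strand. The best intervals of replicates 5 and 6 ranked 13024 and 21098 and lay at different places, 122 and 1604 bp from the start. lin-37 (WBGene00003022, III:7070890-7072552), the remaining MuvB core gene, had 0 intervals in the pooled list and in replicate 5. Its only interval was in replicate 6, at rank 9698 with a q-value of 0.458, in a coding exon 1021 bp from the start. The best pooled signal values at efl-1, lin-35 and dpl-1 were 1.25, 1.07 and 0.867 times the list median, and that at lin-37 was 1.16 times the median of replicate 6. The lists cannot show that binding is absent there.

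In all, 14 pooled intervals lay at the 8 genes, with 14 in replicate 5, 19 in replicate 6 and 3 in the IDR list. Of the 14 pooled ones, 9 had their summit inside an interval of both replicates. The same share was not counted over all 30000 pooled intervals, so this count does not set the DRM genes apart. Beyond the 4 peaks above, the other 10 ranked from 3991 to 28367, with signal values of 37.7 to 19.5 and q-values of 0.306 to 0.895. The best of these was a second lin-9 interval, 2460 bp inside the gene. Each of the 4 strong peaks was the interval nearest to its gene's start, and all 4 pooled summits were upstream of it and outside annotated protein-coding genes. These 4 were picked by rank, and lin-52 is not in the IDR list. Of all 14 pooled summits, 7 lay outside the span of their own DRM gene. Of all 360 IDR summits, 193 (53.6%) lay outside protein-coding genes, against 29.8% of all 30000 pooled summits.

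**Figure D3:**
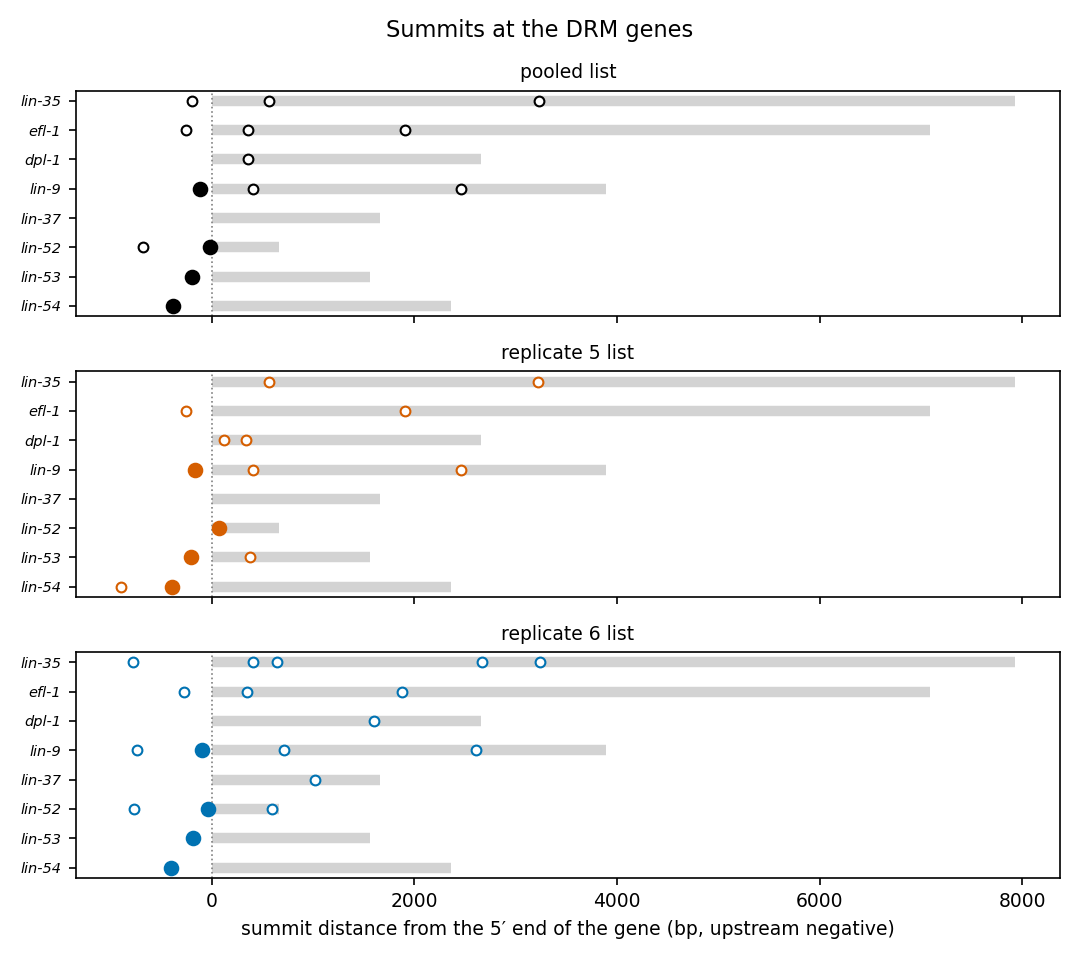
Distance of every summit from the 5′ end of its DRM gene, in bp with upstream negative, in the pooled list (top), replicate 5 (middle) and replicate 6 (bottom); grey bars span each gene, filled circles are intervals among the 1440 best of the list and open circles weaker ones. In each list the filled circles are those of lin-9, lin-52, lin-53 and lin-54, and all stand close to the 5′ end.

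No DRM gene (0 of 8) reached the 360 best intervals in replicate 5 and in replicate 6 alike, a depth that 0.751% of protein-coding genes reached. In replicate 5 alone only lin-9 did, against 1.67% of genes, and in replicate 6 alone only lin-53, against 1.71%. Among the 720 best, lin-53 alone was in both replicates, against 1.33% of genes. Among the 1440 best of both were 4 of the 8, lin-9, lin-52, lin-53 and lin-54, against 2.39% of genes. Any interval at all was found at 7 of 8 genes in replicate 5, against 65.1%, and at 8 of 8 in replicate 6, against 64.7%. Among the 360 IDR peaks as a whole, 144 (40%) were among the 360 best of both replicates, and 32 (8.89%) were among the 360 best of neither, among them that at lin-54.

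The IDR peaks most like those of the DRM genes in rank over the 3 lists were sought among the 356 found in both replicates. Likeness was the sum of absolute log2 rank differences, where 0 is an identical set of ranks. For lin-9 the nearest was at X:16209841, 777 bp from R11.4, with pooled, replicate 5 and replicate 6 ranks of 141, 150 and 836 (sum 0.40). For lin-53 it was at X:1627209, 928 bp from the F-box gene fbxb-58, with ranks of 242, 392 and 347 (sum 0.21). For lin-54 it was at III:1424522, with no protein-coding start within 1000 bp and ranks of 317, 630 and 772 (sum 0.56), followed by the peak 112 bp from elt-3, a GATA factor gene (320, 615 and 644, sum 0.76). The second nearest of lin-9, at V:7432783, and of lin-53, at III:10746469, also had no protein-coding start within 1000 bp.

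CHR letters were common under peaks of all kinds, and E2F letters less so. In the 201 bp around the best pooled summit, 5 of the 7 DRM genes with a pooled interval held a CHR match, against 44.4% of the IDR peaks and 43.0% of all pooled intervals. An E2F match was found at 3 of the 7, against 13.3% and 8.77%. These 3 were lin-9, lin-53 and lin-54, and each held a CHR match as well. Both kinds together, a count made after the values were seen, occurred in 6.67% of IDR windows and 3.88% of all pooled windows. At lin-54 the E2F match lay on the rpl-12 side of the summit, outside the stretch printed above. G and C content in the same windows was 50.2% at lin-9, 43.8% at lin-53 and 47.3% at lin-54, against 34.3% at lin-52, 38.3% at dpl-1, 30.8% at lin-35 and 29.4% at efl-1. The median was 43.8% for IDR peaks and 40.3% for all pooled intervals. E2F forms are rich in G and C, and the part of base composition in these matches was not tested.

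A further 71 genes in 6 lists covered the synMuv and Rb pathways, complexes related to LIN-53, cell division and the germline. Of the 71, 2 had an IDR peak, pcn-1 and htp-3 (2.82%), against 1.74% of all protein-coding genes. Of the 71, 2 were also among the 1440 best of both replicates, pcn-1 and mcm-4 (2.82%, against 2.39%), and counts this small do not set the lists apart from other genes. A pooled interval was found at 64 of them (90.1%, against 64%), with a median best rank of 6999.5, against 10201 over all genes with one. The median length of the genes was above the 2027 bp of all protein-coding genes in each of the 6 lists, at 2720 to 5024.5 bp. pcn-1, the gene of the replication clamp PCNA, had the strongest of these peaks, 245 bp upstream of its start at IV:4049693, with a pooled signal value of 119 at rank 42 and best ranks of 75 in replicate 5 and 40 in replicate 6. It thus ranked above every DRM gene in all 3 lists. The start of wrt-5 was 881 bp from the same summit. mcm-4, of the replicative helicase, had its best pooled rank of 835 in a coding exon, with best ranks of 259 and 503 in replicates 5 and 6. Of the 20 cell division and replication genes, 20 had a pooled interval, with a median best rank of 6986 and a median length of 2801.5 bp.

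In the remaining lists the 1 IDR peak was at htp-3, among the 15 germline genes (6.67%, against 1.74% of all protein-coding genes). The htp-3 summit at I:4829243 ranked 350 and lay in a coding exon, 892 bp upstream of the start of F57C9.4, the tagged gene itself, whose product the transgene also encodes; the part of the transgene in that peak was not tested. Among the 11 cell cycle regulators of the Rb pathway the best was cye-1, the cyclin E gene, at rank 547, in an intron. That summit was 5 bp from the start of the tRNA gene WBGene00022955, and the best cye-1 ranks in replicates 5 and 6 were 1800 and 351. Among the 13 genes of NuRD and other complexes related to LIN-53, the best was mep-1, a zinc finger gene, at rank 483, 123 bp upstream of the start. The same summit was 4 bp from a start of M04B2.11, which is annotated as non-coding, and mep-1 ranked 193 and 2736 in the replicates. Of the 8 other synMuv B genes, met-2, a histone H3 lysine 9 methyltransferase gene, ranked best at 1469 (1389 and 8995 in the replicates), with a list median of 13720. Of the 4 synMuv A genes, 2 had a pooled interval, with lin-56 best at 1778.

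**Figure D4:**
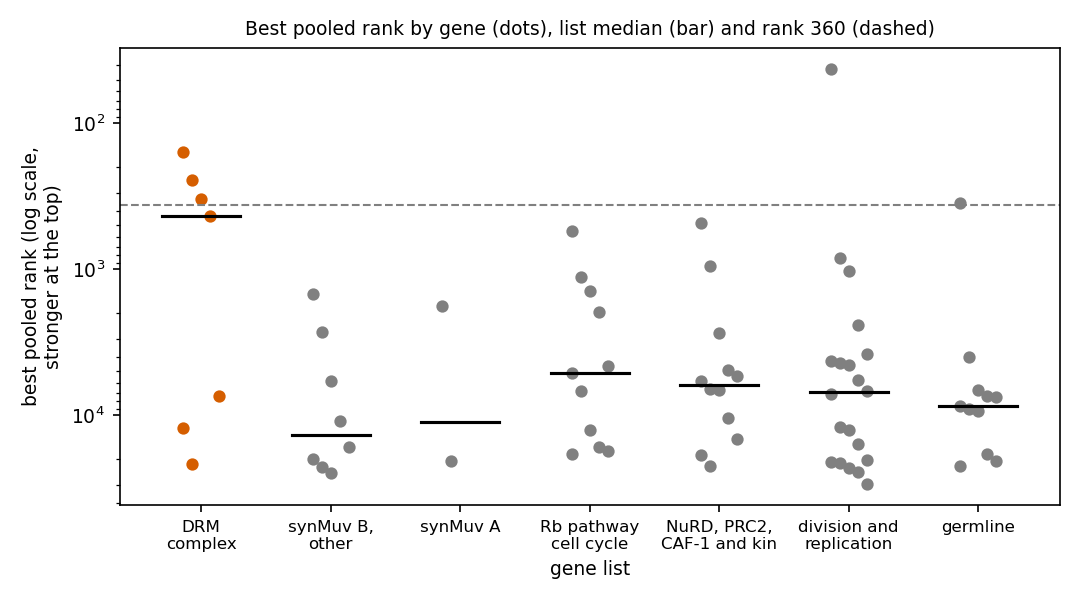
Best pooled rank of each DRM gene (left, orange) and of genes in 6 related lists (grey), on a log axis with stronger intervals at the top; each dot is a gene with a pooled interval, black bars are list medians and the dashed line is rank 360. The DRM median of 433 is set by the 4 MuvB genes, with the other 3 dots at 7424 or beyond, and only pcn-1 and htp-3 of the related genes lie above the line.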

How the data were processed

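The peak lists of 2 biological replicates, and of both pooled, were used as deposited on build ce11. The text files that accompany the samples say what each list was made from: alignments of 1 replicate, or of both, plus 1 further file of unstated kind, and for the IDR list the other 3 lists. No source used here names the aligner or the peak caller. The authors' signal value served to rank intervals inside a list. It was compared between lists only as a multiple of each list's own median. The deposited −log10 q-value was turned into a q-value and only described; it does not follow the order of the signal. As another deposited value, the summit offset gave summit positions, counted from 1. All 360 IDR peaks were the 360 best pooled intervals, so IDR rank equals pooled rank.

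Genes and starts were those of Ensembl release 115 for WBcel235 (46890 genes on nuclear chromosomes), which is ce11, and no coordinate was moved between builds. Each share over all protein-coding genes used the same rule as for the DRM genes, and no test was made, since there was 1 group. The members and lists were chosen with earlier results of these data known. Beside the 8 genes, those named were genes sharing a DRM peak, listed genes with an IDR peak or else the best of each list, and the 2 IDR peaks nearest in rank to each DRM peak. mcm-4, rba-1 and the neighbours of listed genes were named after their values were seen. The matching of intervals to genes was tested on simulated data with 400 genes, where 40 of 40 planted summits were found. Python 3.11.15, numpy 2.4.6 and pandas 2.3.3 were used. Alternatives covered the start window, the matching rule, the depth of the lists, a single replicate in place of both, and the ce10 IDR list.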

Additional observations from a re-analysis of the deposited data

How the results depend on the processing

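The count of 3 DRM genes with an IDR peak was the same with start windows of 500 and 2000 bp, near starts only, by interval overlap and for peaks also in the ce10 IDR list. It was 2 with a window of 250 bp or with the nearest start only, as lin-54 was then lost. It was 1 (lin-9) among the 180 best IDR peaks. With either replicate left out, IDR was not rerun, and the 360 best intervals of the other replicate took the place of its list. The count was then 1: lin-53 without replicate 5 (against 1.71% of genes) and lin-9 without replicate 6 (against 1.67%). The count among the best of both replicates was 0 at depths of 180 and 360, with windows of 500 and 2000 bp too, 1 at 720 and 4 at 1440. It therefore depends on the depth chosen. The count with any pooled interval was 6 or 7 with other start windows. With the list of 1 replicate in place of the pooled list, it was 8 in replicate 6 and 7 in replicate 5.

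Best ranks with 1 replicate left out ran from 140 to 922 for lin-9, 331 to 431 for lin-53, 750 to 874 for lin-54 and 507 to 829 for lin-52. They ran from 15346 to 19638 for lin-35, 9284 to 10697 for efl-1 and 13024 to 21098 for dpl-1. Counting near starts only changed the rank of efl-1 alone, to 8187. Of the 7 best pooled intervals, 4 held a CHR match within 50 bp, against 23.3% of IDR peaks and 24.3% of all pooled intervals. In whole intervals 7 of the 7 held one, against 69.2% and 69.0%. An E2F match was held by 2 within 50 bp, against 7.5% and 4.73%. In whole intervals it was held by 3, against 18.6% and 15.6%. No paired analysis was possible because there was 1 group and no test. With read depth unknown, weak binding cannot be told from its absence, and 2 replicates limit how well a rank is known.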
